A study of Mus musculus with 16 samples.

Results

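Genes of the T helper 1 (Th1) and cytotoxic programme were followed in mouse CD4+ T cells that cannot make T-bet, the transcription factor that normally sets this programme. By symbol, 10 were chosen out of 23337 genes counted. They are Ifng, Tbx21, Eomes, Stat4, Il12rb1, Il12rb2, Il18r1, Il18rap, Cxcr3 and Gzmb, and all but Ifng passed the filter on low counts, so that 9 were tested. The cells came from C57BL/6 mice of the genotype Dgcr8f/f Tbet-/- CD4-cre, in which Cre expressed in T cells removes Dgcr8, so that primary microRNA transcripts are not processed. All 4 groups share this genotype, the controls included, and no cells with intact Tbx21 or Dgcr8 were analysed here. The CD4+ cells were enriched from spleen and lymph node and activated with antibodies to CD3 and CD28. IL-4 was present at 10 U/ml during the 3 days of activation, and a rest of 2 days followed with IL-2 at 20 U/ml. On day 1 and day 4 they received 500 nM of a microRNA mimic, a synthetic RNA that acts like the mature microRNA. The mimics were a control, miR-23a, miR-24 and miR-27a, with 4 libraries each, and live cells positive for the RosaYFP reporter of Cre were sorted for RNA. The labels used here give no age and do not say which libraries shared a mouse or a culture, so the p-values measure the spread between these libraries.

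Th1 cells are made when IL-12 binds a receptor of the chains encoded by Il12rb1 and Il12rb2 and activates STAT4, while T-bet opens the gene of interferon-gamma (Ifng) and raises Il12rb2 and the chemokine receptor gene Cxcr3. IL-18, whose receptor has a binding chain (Il18r1) and a signalling chain (Il18rap), adds to interferon-gamma production. Eomes encodes a T-box factor related to T-bet that acts mainly in CD8 T cells and natural killer (NK) cells, and Gzmb encodes granzyme B, a protease of cytotoxic granules that activated CD4 cells can also make. IL-4, added to these cultures, favours the opposite Th2 programme.

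In 15 libraries 2120408 to 13714841 reads fell in genes, and control replicate 1 had 51474. A single read there was worth 16.3 CPM (the usual count relative to the library's total, here with TMM scaling), and 3 reads 48.8 CPM, so levels in that library carry little weight. The labelled deletions could not be checked, because reads are given per gene and not per exon: Dgcr8 stood at 32.5 to 114 CPM over all libraries. Among CD4 T cell markers, 5 of 8 were in the files, and their summed level was 1673 to 2210 CPM in control libraries, 1670 to 2202 with miR-23a, 1233 to 1453 with miR-24 and 1921 to 2087 with miR-27a. The miR-24 libraries were thus below all others in this sum. In such bulk libraries fewer cells of a type and less RNA per cell cannot be told apart.

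The mature sequences below show what the mimics could recognise. They are RefSeq entries of the 3p arms, with the seed (bases 2 to 8) in capitals, and the arm was assumed because the labels do not give it. Each mimic has a seed of its own, although those of miR-23a and miR-27a share their first letters.
miR-23a-3p: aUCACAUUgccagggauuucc
miR-24-3p: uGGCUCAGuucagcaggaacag
miR-27a-3p: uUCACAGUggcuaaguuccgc

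Matches to these seeds in the longest annotated 3' UTR of each gene (GENCODE M21, GRCm38) were found in 3 of the 10 genes, Eomes, Il18r1 and Ifng. None of the 3 seeds had a match in Tbx21, Stat4, Il12rb1, Il12rb2, Il18rap, Cxcr3 or Gzmb. Eomes held 1 miR-23a match of 8 bases (chr9:118485995-118486002, plus strand) and 1 miR-24 match of 7 bases (chr9:118485532-118485538). Il18r1 held 2 miR-24 matches of 7 bases (chr1:40499280-40499286 and chr1:40499676-40499682, plus strand), and Ifng 2 miR-27a matches. The matches of Eomes and Il18r1, the tested members that hold any, are shown in capitals with 8 bases on either side. A match is a description of letters and not a shown site. How common such matches are over all 3' UTRs was not counted.
Eomes, miR-23a: cttcagtaAATGTGAAaaaaaaaa
Eomes, miR-24: tatagaggCTGAGCCtgagagtc
Il18r1, miR-24, upstream: attttctaTGAGCCAatctttac
Il18r1, miR-24, downstream: tgtttttaTGAGCCAattctggt

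Promoter windows of 300 bases (250 before to 50 after the start, RefSeq, GRCm38.p6) were available for 9 of the 10 genes and were searched on both strands for TCACAC, the core of the T-box element, and TTCNNNGAA, the palindrome that STAT proteins bind. TCACAC stood in the windows of 3 genes, Gzmb, Il12rb2 and Cxcr3, against 14.5% of 32851 windows in the table. TTCNNNGAA stood in those of 4 genes, Gzmb, Il12rb2, Ifng and another listed start of Il18r1, against 8.3% of windows. The 9 genes have 12 windows and a gene counts if any of its windows matches. The percentages are of single windows, so the units differ. The T-box cores lay 80 bases before the start in Il12rb2 (chr6:67376251-67376280, minus strand), 234 before it in Cxcr3 (chrX:101734364-101734393, minus strand) and 15 before it in Gzmb (chr14:56262335-56262361, minus strand). They are printed in capitals within those stretches because the cells lack the T-box factor that the programme is known for.
Il12rb2: tggcaactggggTCACACgccttggttcct
Cxcr3: actgccatcagaTCACACttcctgcctgct
Gzmb: acttcatgattcTCACACaagtactca

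Without T-bet the receptor, signalling and granzyme genes were expressed, and Ifng had no read in 12 of 16 libraries. Scaled to exon length, the median over the 15 deeper libraries was 31.7 CPM per kb for Il18r1, 25.2 for Gzmb, 20.3 for Stat4 and 16.8 for Il12rb1. A lower tier followed with 5.82 CPM per kb for Il12rb2, 3.97 for Il18rap and 2.35 for Eomes. At the bottom stood Cxcr3 at 0.833, Tbx21 at 0.519 and Ifng at 0 CPM per kb. Neighbours in this order were not separated: each gene was above the next in 8 to 12 of 15 libraries, except Tbx21, which was above Ifng in 14. How far these levels lie from those of cells with T-bet was not analysed here.

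**Figure D1:**
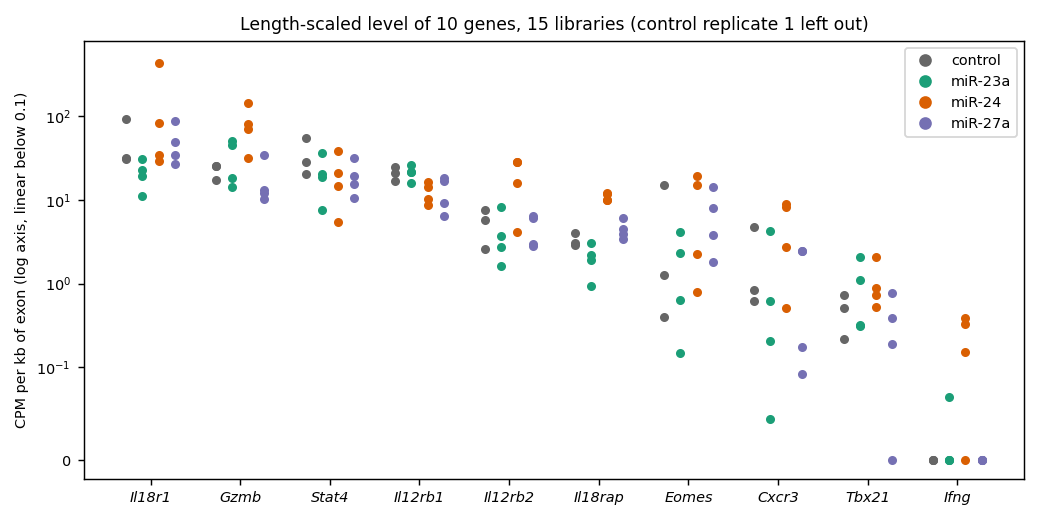
CPM per kb of merged exon (log axis, linear below 0.1) for the 10 genes in 15 libraries, 1 point per library coloured by mimic. Il18r1, Gzmb, Stat4 and Il12rb1 lie highest, Tbx21 at or below 2.09 CPM per kb, and Ifng at 0 in 11 of the 15 libraries.

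Counted over the 9 genes tested, 1 rose with miR-24 against control at an adjusted p under 0.05, and 0 changed with miR-23a or miR-27a. The same test called 0.849% of all 12952 genes for miR-24 (higher 0.293%), 0.131% for miR-23a and 0.17% for miR-27a. At an unadjusted p under 0.05 the edgeR counts were 3 of 9 for miR-24, 1 of 9 for miR-23a and 0 of 9 for miR-27a, and the rates over all genes 14.2%, 11.2% and 14.3%. DESeq2 at an adjusted p under 0.05 called 3 of the 9 for miR-24 (1.81% of all genes with an adjusted p), 0 for miR-23a (0.412%) and 0 for miR-27a (1.25%). The median log2 fold change was 1.12 with miR-24, -0.72 with miR-23a and -0.46 with miR-27a, against medians over all genes tested of 0.05, 0.05 and 0.02. Between mimics, 2 of 9 were called for miR-24 against miR-27a (0.88% of all genes) and 1 for miR-23a against miR-24 (1.1%), which the paired fit raised to 5 (5.38%). Paired here means that a comparison met a correlation rule on replicate numbers, given in the processing section. The labels do not state any pairing. Libraries did not overlap for 1 of 9 genes in each of 5 comparisons: higher with miR-24 than in control (4.04% of all genes), higher with miR-24 than with miR-27a (3.92%), lower with miR-23a than with miR-24 (3.76%) or miR-27a (3.51%), and lower with miR-23a than in control (2.02%). The last was Il18r1 and the others Il18rap. For miR-23a against miR-27a 0 of 9 were called (0.548% of all genes), and 2 in the paired fit (2.95%). For the same pair edgeR at an unadjusted p under 0.05 gave 2 (10.4%), and at an adjusted p under 0.05 DESeq2 gave 1 (1.47%) and limma voom 2 (2.81%). In a test of any difference among the 4 groups Il18rap (edgeR adjusted p = 0.00183) and Gzmb (0.0465) were called, and Il12rb2 stood at 0.0516, where 1.94% of all genes were called. The call of Gzmb held without miR-23a replicate 1, miR-24 replicate 4 or miR-27a replicate 1 and was lost without each of the other 13 libraries, with no filter and with limma voom, whereas Il18rap was called in all of these.

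**Figure D2:**
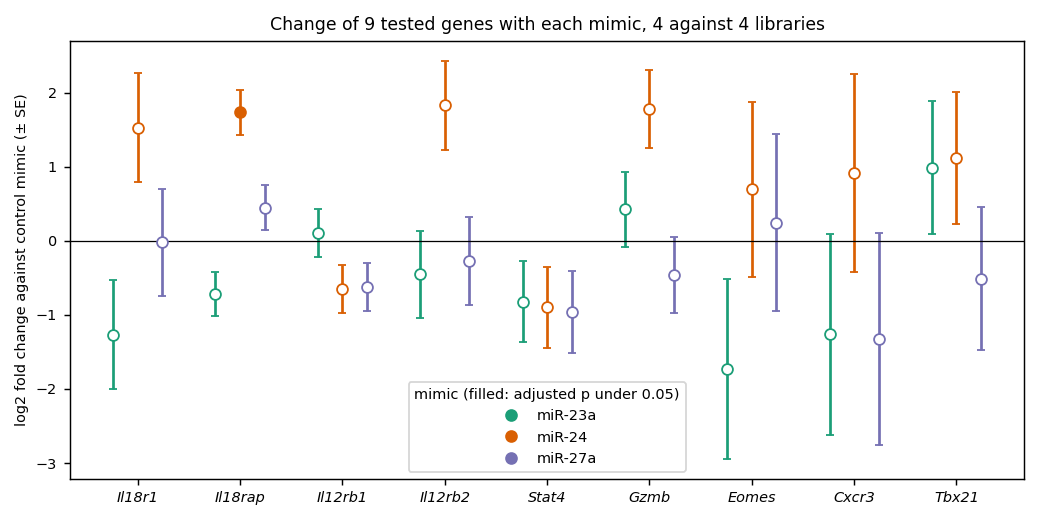
Log2 fold change with its SE of 9 genes for each mimic against the control mimic, 4 against 4 libraries, edgeR; filled points have an adjusted p under 0.05. The only filled point is Il18rap with miR-24, at 1.73.

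Il18rap, the signalling chain of the IL-18 receptor (GRCm38 chr1:40515362-40551705, plus strand), rose with miR-24. Control libraries held 16.3, 27.1, 19.5 and 20.9 CPM and miR-23a libraries 12.9, 20.7, 6.33 and 14.7 CPM. The miR-24 libraries held 67.2, 80.7, 79.8 and 67.9 CPM and the miR-27a libraries 30.3, 26.8, 23.1 and 40.6 CPM. All 4 miR-24 libraries were above all 12 others, and the miR-23a and miR-27a libraries did not overlap either. Against control the log2 fold change with miR-24 was 1.73 ± 0.31 (SE, 4 against 4 libraries, edgeR's quasi-likelihood test, adjusted p = 0.0101), a 3.32-fold difference. The call was lost without control replicate 3 (1.65, edgeR adjusted p = 0.0725). The CD4 marker sum, which was lower in the same 4 libraries, moves with this result, and its part in it was not tested. Il18rap was also lower with miR-23a than with miR-24, by -2.45 ± 0.30 on the log2 scale (edgeR adjusted p = 0.000627), and this held without any 1 of the 8 libraries (largest adjusted p = 0.00336). Against miR-27a the miR-24 libraries were higher by 1.29 ± 0.29 (edgeR adjusted p = 0.0417), a call that was lost without miR-24 replicate 2, 3 or 4 or miR-27a replicate 1, 2 or 3 (adjusted p 0.0693 to 0.139) and with these 2 groups alone (0.05004). Against control, miR-23a gave -0.72 ± 0.30 (edgeR adjusted p = 0.396) and miR-27a 0.44 ± 0.30 (0.509). Between miR-23a and miR-27a the log2 difference was -1.16 ± 0.29 (edgeR adjusted p = 0.0914). These groups met the correlation rule for pairing, and with the replicate number as a block the difference was -1.22 ± 0.26 (edgeR adjusted p = 0.0137).

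Il18r1, the IL-18 binding chain (chr1:40465552-40500854, plus strand, just upstream of Il18rap), did not pass the test with any mimic. Control libraries held 195, 148, 153 and 450 CPM and miR-23a libraries 110, 147, 53.1 and 91.9 CPM, just below all 4 controls. With miR-24 it stood at 2083, 397, 165 and 140 CPM and with miR-27a at 235, 131, 165 and 419 CPM, both overlapping control. The level of 2083 CPM in miR-24 replicate 1 came from 12465 reads, while the same library was the lowest of its group for Il18rap. The log2 fold change against control was -1.27 ± 0.73 with miR-23a (edgeR adjusted p = 0.525), 1.53 ± 0.74 with miR-24 (0.366) and -0.02 ± 0.72 with miR-27a (0.996). Without miR-24 replicate 1 the value for miR-24 was -0.04 (edgeR adjusted p = 0.986), so that 1 library decides it.

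**Figure D3:**
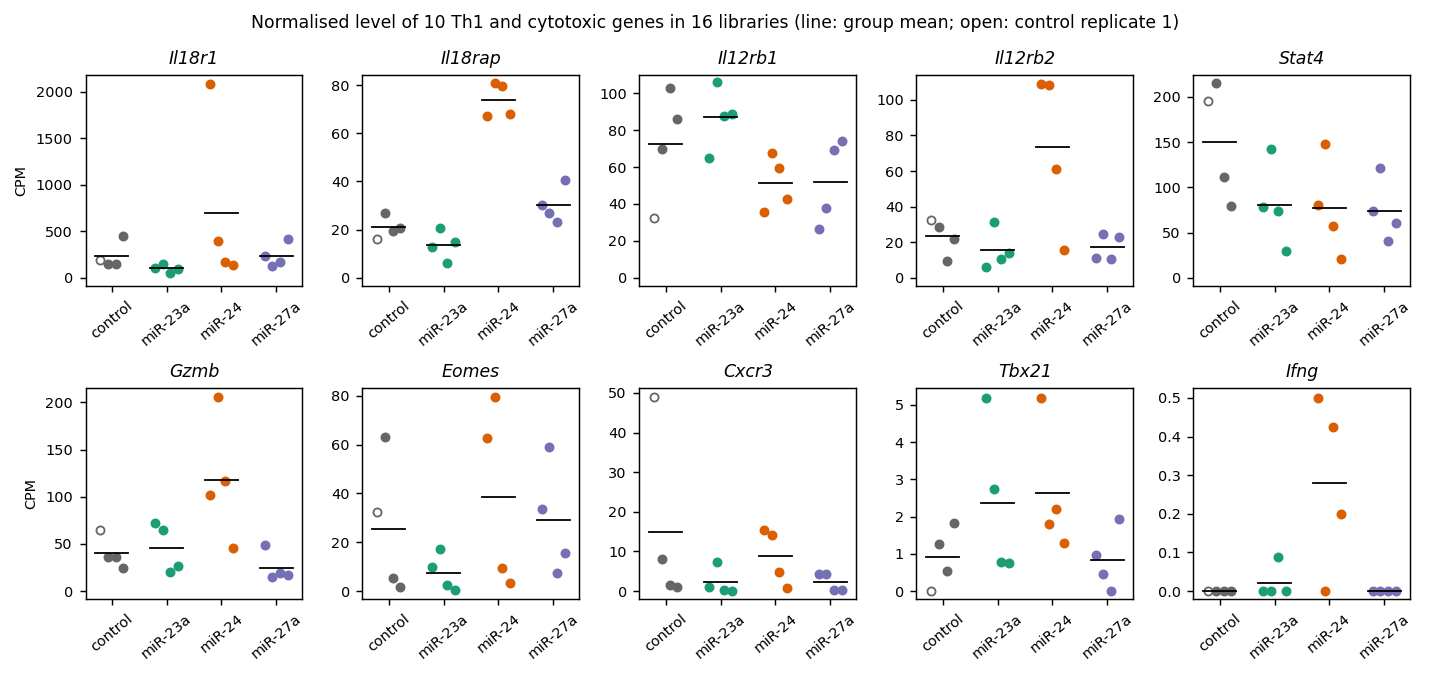
CPM of each of the 10 genes in all 16 libraries, with each panel on its own linear axis from 0, points by replicate number within a mimic and a line at the group mean; the open point is control replicate 1. For Il18rap the miR-24 points lie at 67.2 to 80.7 CPM, above all others, whereas Il18r1 has 1 miR-24 point at 2083 CPM.

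The receptor for IL-12 was present in all groups. Il12rb1, the chain shared with the IL-23 receptor (chr8:70808449-70821424, plus strand), stood at 32.6, 69.8, 103 and 85.9 CPM in control libraries and at 65.0, 106, 87.6 and 88.7 CPM in those of miR-23a. The miR-24 libraries held 35.6, 67.7, 59.4 and 42.5 CPM, those of miR-27a 26.5, 37.6, 69.0 and 74.2 CPM. The ranges overlapped in all 3 comparisons with control, where the log2 fold changes were 0.10 ± 0.32 (miR-23a, edgeR adjusted p = 0.933), -0.65 ± 0.32 (miR-24, 0.374) and -0.63 ± 0.32 (miR-27a, 0.387). In the paired comparisons Il12rb1 was higher with miR-23a than with miR-24 and than with miR-27a in 4 of 4 numbers each. The log2 differences were 0.76 ± 0.31 (edgeR adjusted p = 0.312) and 0.73 ± 0.31 (0.419), and with the replicate block 0.77 ± 0.23 (0.0564) and 0.80 ± 0.23 (0.0733), so that none passed the test.

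Il12rb2, the chain that confers IL-12 signalling through STAT4 (chr6:67291318-67376188, minus strand), was at 32.6, 28.7, 9.73 and 22.1 CPM in control and 6.09, 31.2, 10.4 and 14 CPM with miR-23a. With miR-24 it was at 109, 108, 61.2 and 15.5 CPM, and with miR-27a at 11.3, 24.4, 10.7 and 22.9 CPM. Replicates 1 to 3 of miR-24 were above all 12 libraries of the other groups and replicate 4 was within their range. The log2 fold change of miR-24 against control was 1.83 ± 0.60 (edgeR adjusted p = 0.177), against miR-27a 2.10 ± 0.57 (adjusted p = 0.0913), and of miR-23a against miR-24 -2.28 ± 0.57 (0.0611). With the replicate block the last difference was -2.38 ± 0.49 (edgeR adjusted p = 0.0104), and of these pairs only the last met the correlation rule for pairing. Of its exons 1519 bases are shared with Serbp1 on the opposite strand, and the strand setting of the counting is not given, so reads of the 2 genes may be mixed. Serbp1 held 1188, 1110, 1099 and 939 CPM in control and 1272, 746, 684 and 726 CPM with miR-24, and its part in the Il12rb2 values was not tested.

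Stat4, the transcription factor downstream of IL-12 (chr1:51987148-52107189, plus strand), held 195, 215, 111 and 78.9 CPM in control. The libraries of miR-23a held 78.5, 142, 73.5 and 29.6 CPM. Those of miR-24 held 80.2, 148, 57.2 and 21.2 CPM, and those of miR-27a 74.2, 121, 40.5 and 60.5 CPM. The ranges of each mimic and control overlapped, and control replicate 1 rests on 12 reads. With each of the 3 mimics Stat4 was lower than in control in 4 of 4 numbers. In the order miR-23a, miR-24, miR-27a the replicate block gave -0.91 ± 0.27, -1.07 ± 0.28 and -0.91 ± 0.28 (edgeR adjusted p = 0.131, 0.0355 and 0.0753). Only miR-27a with control met the correlation rule for pairing. Without the block the log2 fold changes were -0.83 ± 0.55, -0.90 ± 0.55 and -0.96 ± 0.55 in the same order, and none passed the test (edgeR adjusted p = 0.581, 0.493 and 0.433). The 3 comparisons share the same 4 control libraries, so they are not 3 independent observations. Of its exons 1033 bases are also annotated to Gm28177 on the same strand.

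Gzmb, the granzyme B gene (chr14:56258838-56262260, minus strand), was higher with miR-24 than with miR-27a. Control libraries held 65.1, 36.1, 36.2 and 24.5 CPM, and miR-23a libraries 72.3, 64.9, 20.5 and 26.4 CPM. With miR-24 they held 102, 206, 117 and 45.3 CPM, and with miR-27a 49.0, 14.6, 18.8 and 17.3 CPM. The miR-24 range overlapped that of control only through control replicate 1, whose 65.1 CPM rests on 4 reads, and that of miR-27a only through replicate 1 of miR-27a. Between miR-24 and miR-27a the log2 difference was 2.24 ± 0.50, or 4.74-fold (edgeR adjusted p = 0.0417). This call was lost without miR-24 replicate 1, 2 or 3 or miR-27a replicate 2, 3 or 4 (adjusted p 0.0599 to 0.144), with no filter on low counts (0.0529) and with these 2 groups alone (0.0836). Against control the miR-24 value was 1.78 ± 0.53 (edgeR adjusted p = 0.133), the miR-23a value 0.42 ± 0.51 (0.778) and the miR-27a value -0.46 ± 0.51 (0.704). The replicate block gave 1.55 ± 0.37 for miR-24 against control (edgeR adjusted p = 0.0243), a comparison that did not meet the correlation rule for pairing. Between miR-23a and miR-24 the difference was -1.36 ± 0.48 (edgeR adjusted p = 0.208), and with the replicate block of this paired comparison -1.42 ± 0.34 (0.0209).

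Of other cells that make granzyme B, markers of NK and innate lymphoid cells were low, while the CD8 marker sum reached 35.7 CPM. Of 9 NK and innate lymphoid markers, Ncr1, Klra8 and Klra4 were at 0 in all 16 libraries, and the sum of all 9 was at most 3.96 CPM in control, and 2.29, 2.63 and 1.61 CPM in the order miR-23a, miR-24, miR-27a. Another marker of that list, Klrd1, had 1 to 7 reads in each miR-24 library, 16 in all, and 0 in the 12 other libraries, so that it moves with Il18rap, Gzmb and Ifng in the miR-24 group. Its part in those results was not tested. The 2 CD8 markers, Cd8a and Cd8b1, summed to 0 to 31.8 CPM in control, 8.88 to 12.8 with miR-23a, 17.2 to 30.2 with miR-24 and 11.1 to 35.7 with miR-27a. The miR-24 libraries thus all lay above the miR-23a libraries and within the ranges of control and miR-27a for the CD8 sum. Whether CD8 cells contribute to Gzmb, Eomes or Il18rap was not tested.

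Eomes, the T-box factor related to T-bet (chr9:118478212-118486132, plus strand), spread widely within each mimic, along the replicate numbers. In replicate order it held 32.6, 62.9, 5.31 and 1.68 CPM in control libraries and 9.77, 17.1, 2.64 and 0.61 CPM in those of miR-23a. The libraries of miR-24 held 62.7, 79.3, 9.43 and 3.28 CPM and those of miR-27a 33.6, 59.2, 7.60 and 15.8 CPM. In each of the 4 groups replicates 1 and 2 were above replicates 3 and 4, and all 4 ranges overlapped. The same order in all 4 groups held for Cxcr3 and Stat4, 3 of the 10 genes, while 1.14% of the 12952 genes tested showed it in this direction and 3.41% in the other. Control replicate 1 rests on 2 reads for Eomes, 3 for Cxcr3 and 12 for Stat4, so its place in this order is uncertain. The labels do not say what a replicate number stands for.

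Within a number the miR-23a library held less Eomes than the miR-24 and the miR-27a library in 4 of 4 numbers. Both of these comparisons met the correlation rule for pairing. Without the block no comparison of Eomes passed: -1.73 ± 1.21 for miR-23a (edgeR adjusted p = 0.607), 0.69 ± 1.19 for miR-24 (0.837) and 0.24 ± 1.19 for miR-27a (0.954) against control. These directions are not stable: the value for miR-23a against control was 0.79 without control replicate 2, and that for miR-27a was below 0 without control replicate 3 or 4 or miR-27a replicate 2. By the correlation rule of the processing section, numbers paired the libraries in 3 comparisons. For miR-27a with control the replicate block gave 0.99 ± 0.49 (edgeR adjusted p = 0.246), no call. It gave Eomes lower with miR-23a than with miR-24 by -2.26 ± 0.45 (edgeR adjusted p = 0.00724; -2.42 ± 1.18 and 0.432 without it). It also gave Eomes lower with miR-23a than with miR-27a by -2.49 ± 0.47 (edgeR adjusted p = 0.00647; -1.97 ± 1.18 and 0.622 without it). Of its exons 118 bases are shared with the antisense gene Gm33460.

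Cxcr3, the receptor for the interferon-induced chemokines CXCL9, CXCL10 and CXCL11 and a T-bet target (chrX:101731535-101734269, minus strand), was low. Control libraries held 48.8, 8.14, 1.44 and 1.07 CPM, where 48.8 CPM is 3 reads, and those of miR-23a 1.08, 7.29, 0.352 and 0.0764 CPM. The libraries of miR-24 held 15.5, 14.1, 4.76 and 0.894 CPM and those of miR-27a 4.19, 4.23, 0.304 and 0.161 CPM. The ranges overlapped in every comparison. Against control the log2 fold changes were -1.26 ± 1.36 (miR-23a, edgeR adjusted p = 0.751), 0.92 ± 1.34 (miR-24, 0.803) and -1.33 ± 1.43 (miR-27a, 0.695). Single libraries decide their size: leaving out 1 library at a time gave -3.21 (without miR-23a replicate 2) to -0.20 (without control replicate 2) for miR-23a, 0.40 (without control replicate 3) to 2.00 (without control replicate 2) for miR-24, and -2.12 (without miR-27a replicate 1) to -0.26 (without control replicate 2) for miR-27a. The paired comparison of miR-23a with miR-24 gave -2.18 ± 1.24 (edgeR adjusted p = 0.525), and with the replicate block -2.61 ± 0.60 (0.0146).

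**Figure D4:**
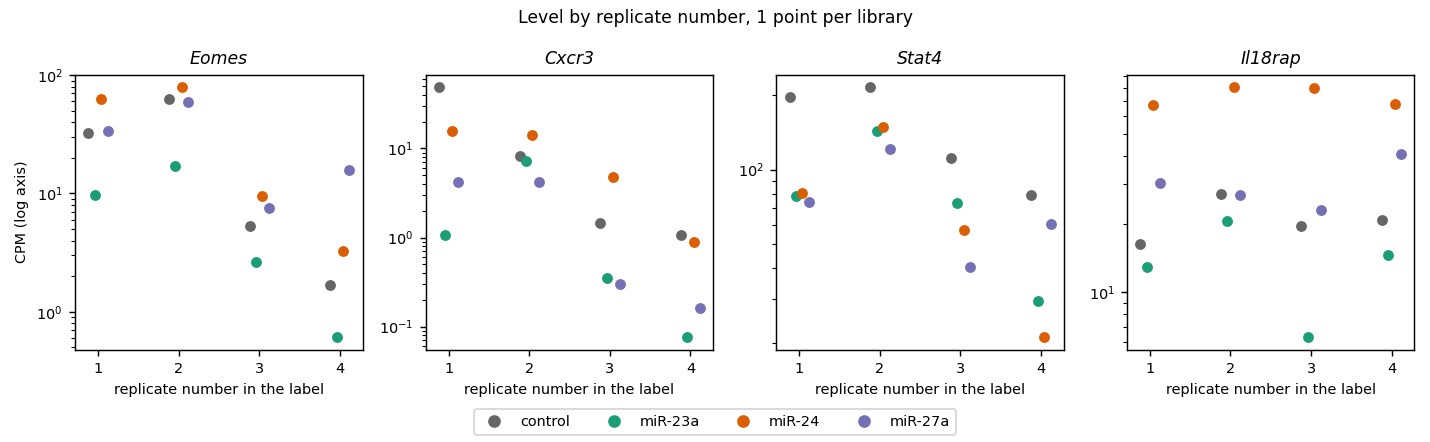
CPM on a log axis against the replicate number of the label for Eomes, Cxcr3, Stat4 and Il18rap, 1 point per library coloured by mimic. Replicates 1 and 2 lie above 3 and 4 within each mimic for Eomes, Cxcr3 and Stat4, whereas for Il18rap the miR-24 points lie above all others.

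Tbx21 itself (chr11:97098071-97115331, minus strand) had 228 reads in all 16 libraries together. Control libraries held 0, 13, 6 and 12 reads, miR-23a libraries 58, 12, 9 and 10, miR-24 libraries 31, 22, 26 and 13, and miR-27a libraries 3, 1, 0 and 12. The highest level was 5.2 CPM, in miR-23a replicate 1, followed by 5.18 CPM in miR-24 replicate 1, and the other 14 libraries were at or below 2.73 CPM. The log2 fold changes against control were 0.99 ± 0.89 (miR-23a, edgeR adjusted p = 0.699), 1.12 ± 0.89 (miR-24, 0.618) and -0.51 ± 0.97 (miR-27a, 0.843). Which part of the gene these reads cover is not given, and a deletion allele can leave transcribed exons.

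Ifng (chr10:118441046-118445892, plus strand) had 11 reads in all 16 libraries, 10 of them in the miR-24 group. Its miR-24 libraries held 3, 0, 5 and 2 reads, miR-23a replicate 3 held 1, and all control and miR-27a libraries held 0. The control group counted 29351467 reads in genes, so that 0 reads allow a level of up to 0.102 CPM (3 reads over the group, counting error only). With miR-24 the mean was 0.28 ± 0.23 CPM (SD, n = 4), and the exact permutation test against control gave p = 0.143, two-sided. Without ties 4 against 4 libraries can reach 0.0286. With this many libraries tied at 0, 0.143 is the smallest p that the test could give, so it cannot decide the question. With miR-23a it was 0.022 ± 0.044 CPM (SD, n = 4, exact permutation p = 1, a value fixed by the single read). Its exons share 336 bases with Gm49751 on the same strand, and at this depth a difference between mimics was not detectable. Reads were present in the genes that sense IL-12 and IL-18 while the cytokine gene they act on had almost none. The cells had rested for 2 days in IL-2 after activation with IL-4, and no cells with T-bet were compared. What part the resting state or the loss of T-bet has in the low Ifng was not tested.

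Genes around these members were taken from 7 lists. Of 22 genes of IL-12, IL-18, IL-27 and interferon-gamma signalling, all tested, 1 fell with miR-23a, where 0.131% of all genes were called. With miR-24 or miR-27a 0 changed (0.849% and 0.17% of all genes called). The medians were 0.01, 0.14 and -0.06 in the order miR-23a, miR-24, miR-27a. The gene that fell was Ifngr2, the signalling chain of the interferon-gamma receptor. It held 97.7, 199, 169 and 78.3 CPM in control and 60.6, 61.9, 52.9 and 44.8 CPM with miR-23a, without overlap, and the log2 fold change was -1.37 ± 0.26 (edgeR adjusted p = 0.0457). Its call was lost with RLE scaling (0.0596), with no filter (0.0545), with the 2 groups alone (0.254) and without any 1 of 7 of the 8 libraries (all but control replicate 4; adjusted p 0.0517 to 0.206). The miR-27a libraries held 118 to 147 CPM, and miR-23a was lower than miR-27a by -1.31 ± 0.26 (edgeR adjusted p = 0.0252), a call lost without any miR-23a replicate or miR-27a replicate 1, 2 or 3 (adjusted p 0.0582 to 0.104). Ifngr2 holds 2 miR-23a matches of 7 bases close together (chr16:91563393-91563399 and chr16:91563407-91563413, plus strand), shown in capitals because it is the interferon-gamma pathway gene that fell with this mimic.
Ifngr2, miR-23a, upstream: tcatgtccAATGTGAtggcttaa
Ifngr2, miR-23a, downstream: atggcttaAATGTGAgacccctg

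The kinases of the same signals were present, and those named here did not pass the test. Jak1 stood at 521 to 771 CPM in all 16 libraries. Tyk2, a kinase of the IL-12 receptor, stood at 16.3 to 32.1 CPM in control, 38.3 to 53.7 with miR-23a, 20.7 to 37.0 with miR-24 and 34.3 to 62.4 with miR-27a. Its miR-23a and miR-27a libraries lay above all 4 controls (0.64 ± 0.25, edgeR adjusted p = 0.376, and 0.56 ± 0.25, 0.325). Jak2, the other kinase of that receptor, gave -0.29 ± 0.34, -0.46 ± 0.34 and -0.59 ± 0.34 against control in the order miR-23a, miR-24, miR-27a. In the paired fit of miR-23a with miR-24, 3 of the 22 were called, and 5.38% of all genes. Il27ra, the IL-27 receptor, was higher with miR-23a (1.24 ± 0.24, edgeR adjusted p = 0.00545), while Ifngr2 (-0.76 ± 0.20, 0.0323) and Irf8, an interferon-induced factor (-1.54 ± 0.31, 0.00586), were lower.

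Of 14 transcription factors that act on Th1 genes beside T-bet, 13 were tested and 0 were called with any mimic against control. Over all genes the shares called were 0.131% (miR-23a), 0.849% (miR-24) and 0.17% (miR-27a). Runx3, which works with T-bet at Ifng, stood at 34.4 to 86.0 CPM in control and 27.4 to 67.8 CPM with miR-24. Runx1 held 326 to 437 CPM in control, and both the miR-24 libraries (156 to 311 CPM) and the miR-27a libraries (165 to 265 CPM) lay below all 4 controls. Its log2 fold change was -0.79 ± 0.25 with miR-24 (edgeR adjusted p = 0.147). With miR-27a it was -0.91 ± 0.25 (edgeR adjusted p = 0.121) and -0.95 ± 0.22 in the paired fit (0.0235). In that paired fit of miR-27a with control, which called 3.07% of all genes, Bhlhe40, a factor needed for interferon-gamma in T cells, was higher by 1.24 ± 0.31 (edgeR adjusted p = 0.0390; 1.31 ± 0.56 and 0.297 without the block). In the paired fit of miR-23a with miR-24 Id2, an inhibitor of E proteins, was higher with miR-23a by 0.93 ± 0.26 (edgeR adjusted p = 0.0422).

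Of 11 genes that restrain the Th1 programme, 1 fell with miR-24 (0.849% of all genes called) and 1 with miR-27a (0.17%). The medians were -0.05, -0.54 and -0.26 in the order miR-23a, miR-24, miR-27a. Tcf7, the factor TCF-1 of naive and memory T cells, held 505, 951, 613 and 325 CPM in control and 116, 160, 98.5 and 58.4 CPM with miR-24. All 4 miR-24 libraries were below all 12 others, and the log2 fold change was -2.48 ± 0.44 (edgeR adjusted p = 0.0104), a call kept without any 1 of the 8 libraries (largest 0.0490). Tcf7 was higher with miR-23a than with miR-24 by 2.59 ± 0.44 (edgeR adjusted p = 0.00789), also kept without any 1 library. It was lower with miR-24 than with miR-27a by -2.22 ± 0.43 (edgeR adjusted p = 0.0221), which was lost without miR-24 replicate 2, 3 or 4 or miR-27a replicate 1 or 2 (adjusted p 0.0558 to 0.0938) and with the 2 groups alone (0.05004). Its 3' UTR holds 2 miR-24 matches of 7 bases (chr11:52252727-52252733 and chr11:52252711-52252717, minus strand), and they are shown because Tcf7 was the gene of this list that fell with miR-24.
Tcf7, miR-24, upstream: actcttttTGAGCCAaacttaac
Tcf7, miR-24, downstream: acttaaccCTGAGCCttgaaaaa

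Ikzf1, the factor Ikaros, held 1351, 1278, 1339 and 1570 CPM in control and 651, 656, 554 and 834 CPM with miR-27a. The groups did not overlap, and the log2 fold change was -1.04 ± 0.18 (edgeR adjusted p = 0.0192), lost without control replicate 3 or 4 or miR-27a replicate 1, 2 or 3 (adjusted p 0.0591 to 0.0958) and with the 2 groups alone (0.0873). With miR-24 Ikzf1 stood at 826 to 1060 CPM, a log2 fold change of -0.61 ± 0.17 (edgeR adjusted p = 0.121). Against miR-27a the miR-23a libraries were higher by 0.99 ± 0.17 (edgeR adjusted p = 0.0129), which was lost without miR-23a replicate 3 or miR-27a replicate 2 or 3 (adjusted p 0.0514 to 0.0668) and with the 2 groups alone (0.0567). Its 3' UTR holds 3 miR-27a and 3 miR-24 matches, of which a miR-27a match of 8 bases (chr11:11772859-11772866, plus strand) is shown as the match of the restraining gene that fell with this mimic.
Ikzf1, miR-27a: tggcactcACTGTGAAtaagtgtg

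In the paired fit of miR-27a with control Ikzf3, the related factor Aiolos, was lower by -1.86 ± 0.46 (edgeR adjusted p = 0.0410; -1.70 ± 0.53 and 0.179 without the block). The paired fit of miR-23a with miR-24 called 5 of the 11, and 5.38% of all genes. Gata3, the Th2 factor, Ikzf1, Smad3 and Tcf7 were higher with miR-23a, with Gata3 at 0.69 ± 0.20 (edgeR adjusted p = 0.0467), and Bcl6, the follicular helper factor, was lower at -1.02 ± 0.24 (0.0186). Zbtb7b, the CD4 lineage factor ThPOK, gave 0.74 ± 0.33, 0.36 ± 0.33 and 0.41 ± 0.33 against control in the order miR-23a, miR-24, miR-27a (edgeR adjusted p = 0.433, 0.674 and 0.585).

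Of 22 other products and receptors of Th1 cells, 15 were tested and 0 were called with any mimic against control. The same tests called 0.131%, 0.849% and 0.17% of all genes in the order miR-23a, miR-24, miR-27a. Lta, the gene of lymphotoxin alpha, held 97.7, 67.1, 28.9 and 53.6 CPM in control and 286, 183, 97.6 and 91.9 CPM with miR-24 (1.62 ± 0.52, edgeR adjusted p = 0.166). Tnf gave 1.03 ± 0.55 with miR-24 (edgeR adjusted p = 0.419). In the paired fit of miR-23a with miR-24, Lta was lower with miR-23a (-1.82 ± 0.23, edgeR adjusted p = 0.000197). The paired fit of miR-27a with control gave lower Il2ra, the IL-2 receptor alpha chain (-0.98 ± 0.17, edgeR adjusted p = 0.00450), and lower Txk, a kinase of the TEC family (-1.81 ± 0.37, 0.0133). Il2, the gene of interleukin 2, stood at or below 3.34 CPM in all libraries.

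Beside Gzmb the lytic machinery was incomplete. Of 23 genes of granzymes and lytic granules, 15 were tested. Of these 1 fell with miR-24 (0.849% of all genes called) and 0 changed with miR-23a (0.131%) or miR-27a (0.17%). Prf1, the pore-forming perforin, was at or below 5.01 CPM in all 16 libraries, Gzmc at or below 5.01 CPM, and Gzmd was at 0 in all control, miR-24 and miR-27a libraries. Gzma held 0, 0.98, 40.4 and 6.40 CPM in control and 1.67, 5.18, 33.6 and 23.0 CPM with miR-24. With miR-24 replicates 3 and 4 were above 1 and 2, and in control they were above replicate 2. Control replicate 1 cannot be placed in this order, since 1 read there was worth 16.3 CPM. Rab27a, which docks granules at the membrane, was the gene that fell with miR-24, from 32.6, 36.3, 42.0 and 29.1 CPM to 18.2, 18.4, 17.2 and 16.5 CPM (-1.02 ± 0.23, edgeR adjusted p = 0.0413). This call was lost with RLE scaling (0.0622), with no filter (0.0732), with the 2 groups alone (0.141) and without control replicate 2 or 3 or any miR-24 replicate (adjusted p 0.0502 to 0.180). Rab27a was likewise higher with miR-23a than with miR-24 by 0.98 ± 0.22 (edgeR adjusted p = 0.0341), lost with no filter (0.0597), with the 2 groups alone (0.0999) and without miR-23a replicate 1, 2 or 3 or any miR-24 replicate (0.0615 to 0.107). The longest annotated 3' UTR of Rab27a held 0 matches to the miR-24 seed. In the paired fit of miR-27a with control Gzma was lower by -2.72 ± 0.71 (edgeR adjusted p = 0.0467) and Srgn, the granule proteoglycan serglycin, by -0.61 ± 0.16 (0.0409). The paired fit also gave lower Srgn with miR-23a than with miR-24 (-0.57 ± 0.15, edgeR adjusted p = 0.0363) and higher Gzma with miR-23a than with miR-27a (3.53 ± 0.67, 0.00723).

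**Figure D5:**
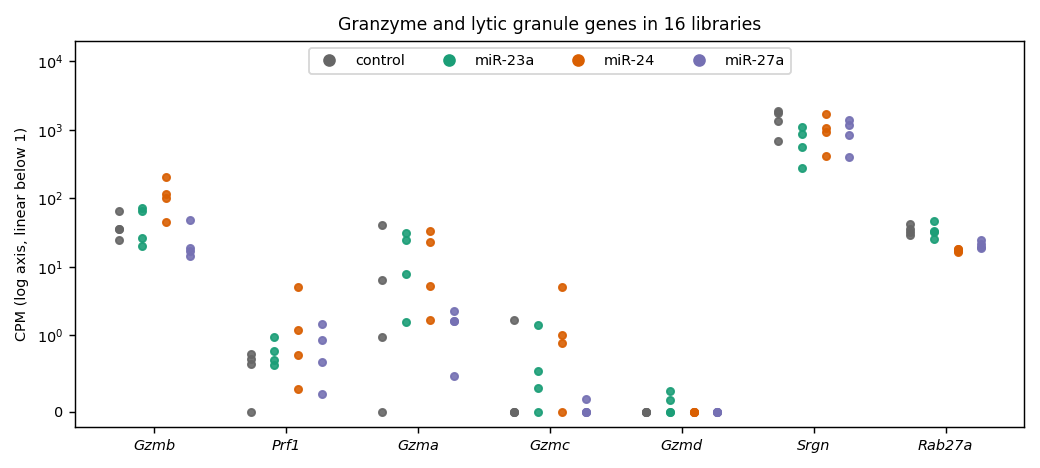
CPM (log axis, linear below 1) of Gzmb and 6 other granzyme and granule genes in 16 libraries, 1 point per library coloured by mimic. Gzmb reaches 206 CPM with miR-24, Prf1 stays at or below 5.01 CPM, and the Rab27a points of miR-24 lie at 16.5 to 18.4 CPM, below the control points.

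The other receptors of the IL-1 family were compared with the IL-18 receptor chains. Of 6 tested, 0 were called with any mimic against control, and the medians were 0.05, -0.17 and -0.09 in the order miR-23a, miR-24, miR-27a. The shares of all genes called were 0.131%, 0.849% and 0.17% in that order. Il1rl1, the IL-33 receptor of Th2 cells, stood at 8.92 to 23.0 CPM in control and 9.43 to 15 CPM with miR-24. Il1rap, the accessory chain of the IL-1 and IL-33 receptors and the counterpart of Il18rap, was named after its values were seen and stood at 6.00 to 8.83 CPM with miR-24 (-0.34 ± 0.41, edgeR adjusted p = 0.748). Of 12 Th2 genes 11 were tested and 0 were called against control, where the shares over all genes are those given above. The medians were 0.02, -0.32 and -0.74 in the same order. Il4, the Th2 cytokine gene, held 16.3 to 37.6 CPM in control and 11 to 29.8 CPM with miR-24. In the paired fit of miR-27a with control the cytokine gene Il10 (-2.88 ± 0.42, edgeR adjusted p = 0.00262) and the factor Maf, which supports Il10 and Il4 (-1.30 ± 0.30, 0.0250), were lower. Between miR-23a and miR-27a the paired fit called 4 further genes of the lists, and 2.95% of all genes. Il10 (2.53 ± 0.40, edgeR adjusted p = 0.00273), Il2ra (0.79 ± 0.17, 0.0117) and Il1r2, the IL-1 decoy receptor (1.58 ± 0.41, 0.0403), were higher with miR-23a, and the chemokine gene Ccl5 was lower (-1.41 ± 0.37, 0.0443).

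Genes with the most similar profile were sought for Gzmb, Il18r1 and Cxcr3 as the smallest root mean square difference of centred log2-CPM over the 15 deeper libraries. For Gzmb they were Gabbr1 (0.60), Aldh18a1 (0.66) and Eya2 (0.67), where the median over 7555 candidates was 1.17. For Il18r1 they were Mndal (0.59), Sgk3 (0.62) and Qser1 (0.66), with a median of 1.29. For Cxcr3 they were Ms4a4b (1.00), Trio (1.09) and Irf8 (1.14), with a median of 1.86 over 7556 candidates. The libraries share mimics and replicate numbers, so these values are descriptions of likeness in this set.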

How the data were processed

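RNA from sorted cells was amplified and sequenced as 16 libraries. The deposited files hold raw read counts per gene symbol, made by the authors, and reads were handled with TopHat and Bowtie2 on mm10, with DESeq also listed, per the submitters' processing notes. The counter, annotation and strand setting are not given in the sources used here. Each file ends with 5 summary lines that name no gene, which were left out; 22.4 to 35.4% of all lines' reads lay in genes, 51474 reads in control replicate 1 and 2120408 to 13714841 in the others, so low levels there rest on few reads.

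Counts of all 16 libraries were fitted by group with edgeR 4.0.16 (R 4.3.3; TMM, filterByExpr, quasi-likelihood test), and p-values of 6 pairwise contrasts and of any group difference were adjusted by Benjamini-Hochberg over 12952 genes, with a threshold of 0.05. Ifng, outside the fit, had an exact permutation test. The fit was checked on simulated data. Alternatives were DESeq2 1.42.0, RLE scaling, no filter, limma 3.58.1 voom with sample weights, a replicate block, the 2 groups alone and leaving out each library; a block without control replicate 1 was chosen after seeing the data.

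The replicate number was held to pair libraries where deviations of same-numbered libraries from their group means correlated above 0.1 in all 4 numbers, over 4746 genes. This was so for miR-27a with control (r 0.198 to 0.611), miR-23a with miR-24 (0.350 to 0.671) and miR-23a with miR-27a (0.257 to 0.655), and the pairing comes from the data alone.

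Named genes were the 10 members, genes of the 7 lists called in a comparison plus up to 4 others in list order, and the 3 nearest profiles. Members and lists were chosen with earlier results of these data known.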

Additional observations from a re-analysis of the deposited data

Results flagged for a closer look

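A single library stood far from the other 3 of its group, by Dixon's criterion at 95%, in 6 of 38 groups of 4 libraries tested. Its chance rate of about 1 in 20 holds for normally distributed values. CPM resting on few reads are not, so the count cannot be set against that rate. Il18r1 was at 2083 CPM in miR-24 replicate 1 (12465 reads), against 140 to 397 CPM in the other miR-24 libraries. Il18r1 was also at 450 CPM in control replicate 4 (2955 reads), against 148 to 195 CPM in the other controls. Gzmb was at 49.0 CPM in miR-27a replicate 1 (152 reads), against 14.6 to 18.8 CPM. Cxcr3 was at 7.29 CPM in miR-23a replicate 2 (32 reads), against 0.0764 to 1.08 CPM, and at 48.8 CPM in control replicate 1, where this is 3 reads, against 1.07 to 8.14 CPM. Ifng was at 0.0880 CPM in miR-23a replicate 3, which is 1 read, and at 0 in the other 3 libraries. The criterion always flags a group with reads in 1 library only.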

How the results depend on the processing

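Of the values compared across settings, 690 kept their direction and side of the threshold, 67 lost a call, 30 gained one and 17 turned direction. For miR-24 against control the 1 called member became 3 with DESeq2 and 0 to 1 when 1 library was left out. For miR-24 against miR-27a the 2 became 1 with no filter, 0 with the 2 groups alone and 0 to 2 when 1 library was left out. For miR-23a against miR-24 the 1 became 3 with DESeq2, whose share over all genes is not given here, and 1 to 2 when 1 library was left out. For miR-23a against miR-27a the 0 became 1 with DESeq2 and 2 with limma voom. For any difference among the groups the 2 became 4 with DESeq2, 1 with no filter, 1 with limma voom and 1 to 3 when 1 library was left out. The DESeq2 share over all genes is not given here for this test either. The cause of these shifts was not tested.

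With the replicate block, the members called numbered 3 for miR-24 against control (Stat4, Il18rap and Gzmb), 4 for miR-24 against miR-27a (Il12rb2, Il18rap, Cxcr3 and Gzmb), 5 for miR-23a against miR-24, 2 for miR-23a against miR-27a and 6 for any difference. With the block and without control replicate 1, a setting chosen after seeing the data, they numbered 2, 4, 5, 2 and 5. Over all genes the block took the calls from 17 to 55 (miR-23a against control), 110 to 591 (miR-24 against control), 22 to 398 (miR-27a against control), 114 to 572 (miR-24 against miR-27a), 142 to 697 (miR-23a against miR-24), 71 to 382 (miR-23a against miR-27a) and 251 to 1254 (any difference). The correlation rule for pairing was not met in 3 comparisons. Their lowest correlation was -0.121 for miR-23a with control, 0.0304 for miR-24 with control and -0.0072 for miR-24 with miR-27a, each above 0.1 in 3 of 4 numbers. The comparisons that met it link all 4 groups, and the block was fitted over all 16 libraries. Whether same-numbered libraries were paired in the other comparisons is therefore not settled. In the paired comparisons the block changed no member's call beyond those given above beside the results.

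Directions that turned were all of values without a call. With limma voom Tbx21 with miR-23a was -0.0241, Gzmb with miR-23a -0.0236 and Eomes with miR-24 -0.0453, against control. With DESeq2 Cxcr3 with miR-24 was -0.15 and Il18r1 with miR-27a 0.00792. When 1 library was left out, values against control ranged from -2.47 to 0.79 for Eomes and from -0.00237 to 0.28 for Il12rb1 with miR-23a, from -0.0437 to 2.15 for Il18r1 with miR-24, and with miR-27a from -1.76 to 0.0619 for Tbx21, -0.37 to 2.76 for Eomes, -0.60 to 0.0209 for Il12rb2 and -0.45 to 0.59 for Il18r1. Il18r1 with miR-24 against miR-27a ranged from -0.0222 to 1.97. Depth limits Ifng, Tbx21 and Cxcr3, and every value in control replicate 1.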
